A study of Mus musculus with 8 samples.

Results

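The interleukin-1 (IL-1) family and the inflammasome that activates it were followed through 10 genes, chosen by name, in whole aortas of ApoE-/- and wild-type (WT) mice. They are the ligands *Il1a*, *Il1b*, *Il18* and *Il33*, the receptor antagonist *Il1rn*, the receptors *Il1r1*, *Il1r2* and *Il1rl1*, the sensor *Nlrp3* and the protease *Casp1*, and all 10 of them, out of 21859 genes in the deposited tables, had enough counts to be tested. Male mice were studied, 4 of each genotype, with 1 library of aortic RNA from each, to ask which genes differ in an atherosclerosis-prone vessel. All mice were 40 weeks old and ate a normal chow diet. The methods place the ApoE-/- strain on the C57BL/6 background and name the WT mice as C57BL/6. ApoE-/- mice lack apolipoprotein E, which clears cholesterol-rich lipoproteins from blood, through a germline deletion, so every cell of the body lacks it throughout life. Each library is total RNA of the whole vessel wall with what adheres to it, and a lower or higher share of a cell type cannot be told apart from a lower or higher amount of RNA per cell.

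IL-1alpha and IL-1beta bind the same receptor, IL-1R1, which signals through MyD88 and IRAK kinases to NF-kB, and IL-1 receptor antagonist occupies that receptor without signalling. IL-1R2 is a decoy that captures IL-1, and ST2, the product of *Il1rl1*, is the receptor of IL-33. IL-1beta and IL-18 are made as inactive precursors, which caspase-1 cuts once an inflammasome such as NLRP3 has assembled, and cholesterol crystals are a known trigger of NLRP3 in atherosclerotic plaques. That cutting is a protein step that counts of RNA do not measure.

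Between 18375898 and 23940156 read pairs per library were counted on genes, and levels are given as CPM (a gene's counts relative to all gene counts of its library, adjusted with TMM factors). All pairs in the files, 65355678 to 75627250 per library, overlapped between the genotypes, as did the shares of ambiguous pairs and of pairs aligned to several places. The shares given next did not overlap. Pairs on genes were 32.3% to 35.6% of all pairs in ApoE-/- mice and 27.9% to 30.2% in WT mice, pairs on no gene 50.1% to 54.7% and 56.4% to 58.0%, and mitochondrial genes took 2.84% to 5.16% and 5.52% to 6.92% of the gene counts. As a background for the counts of genes below, 5.41% of the 15077 genes tested were higher and 3.3% lower without overlap between the genotypes, 7.19% and 4.17% had an unadjusted edgeR p under 0.05, 0.371% and 0.0929% were called by edgeR, and 3.12% and 1.69% were called by DESeq2. Cardiac muscle markers (mean log2 CPM 2.13 to 4.16 in ApoE-/- mice, 4.87 to 6.10 in WT mice) were lower in every ApoE-/- mouse than in any WT mouse, and 6 of 9 were called lower by DESeq2 and 0 by edgeR, although 8 of 9 reached an unadjusted p under 0.05. Markers of T cells and ILC2 (0.19 to 0.78 and -0.49 to 0.02) and of dendritic cells (2.10 to 2.79 and 1.25 to 1.44) had a higher mean without overlap. Of 8 T cell and ILC2 markers tested, 1 (*Il7r*) was higher without overlap, with 0 called by edgeR and 1 by DESeq2. Of 7 dendritic cell markers, 1 (*Itgax*, log2 fold change 4.44, edgeR adjusted p = 0.038) was higher without overlap, and 2, *Zbtb46* (-0.42) and *Clec9a* (-0.37), were lower without overlap, with 1 called higher by edgeR and DESeq2 and 1 called lower by DESeq2. The part of these differences in the levels of the 10 genes was not tested. *Apoe* itself was at 14.7 to 36.3 CPM in ApoE-/- mice and at 536 to 857 CPM in WT mice, so all 8 libraries matched their genotype. ApoE-/- replicate 1 stood apart from the other libraries. Its contractile smooth muscle markers had a mean log2 CPM of 8.20, against 9.34 to 10.19 in the other 7 mice. Where leaving it out changed the edgeR call of any of the 10 genes, or took *Il18bp* or *Il18rap* past the threshold, both values are given.

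The 10 genes differed widely in level. Per kilobase of exon, *Il33* (12.9 ± 3.06 CPM per kb, SD, n = 4), *Il1r1* (10.5 ± 1.33) and *Casp1* (7.22 ± 0.563) were the most abundant in WT aortas, *Il18* (1.66 ± 0.69) and *Il1rl1* (0.706 ± 0.259) followed, and *Il1b* (0.389 ± 0.186), *Il1rn* (0.372 ± 0.145), *Il1a* (0.329 ± 0.123), *Il1r2* (0.219 ± 0.0938) and *Nlrp3* (0.173 ± 0.0541) were lowest. Along this order, the ranges over 4 mice of neighbouring genes overlapped except between *Il1r1* and *Casp1* and between *Casp1* and *Il18*. In ApoE-/- aortas *Il1r1* came first (17.4 ± 5.04 CPM per kb), then *Il33* (16 ± 5.55), *Casp1* (7.91 ± 2.93) and *Il18* (2.21 ± 0.933), and *Il1b* (1.32 ± 0.327) and *Il1rn* (1.29 ± 0.684) stood ahead of *Il1rl1* (0.927 ± 0.478). *Il1r2* (0.766 ± 0.366), *Il1a* (0.754 ± 0.328) and *Nlrp3* (0.626 ± 0.217) closed this second order, in which the ranges of neighbouring genes overlapped except between *Casp1* and *Il18*.

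Of the 10 genes, *Il1b*, *Il1rn* and *Nlrp3* were higher in every ApoE-/- mouse than in any WT mouse, where 5.41% of the 15077 genes tested showed this order. The mean level of each was over 3 times that of WT mice. By edgeR's quasi-likelihood test with Benjamini-Hochberg adjustment over all genes tested, none of the 10 passed an adjusted p of 0.05 in either direction, against a background of 0.371% of genes called higher and 0.0929% called lower. The fitted change was above 0 for 10 of 10 genes, with a median log2 fold change of 0.96 beside 0.05 over all genes tested. At an unadjusted p under 0.05, 6 of the 10 were higher, where 7.19% of all genes were, and with DESeq2 4 of the 10 (*Il1b*, *Il1rn*, *Il1r2* and *Nlrp3*) passed the adjusted threshold, where 3.12% of all genes did. Without ApoE-/- replicate 1, edgeR called 3 of them higher (*Il1rn*, *Il1r1* and *Nlrp3*) beside 2.75% of all genes, and without any other single mouse it called 0.

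**Figure D1:**
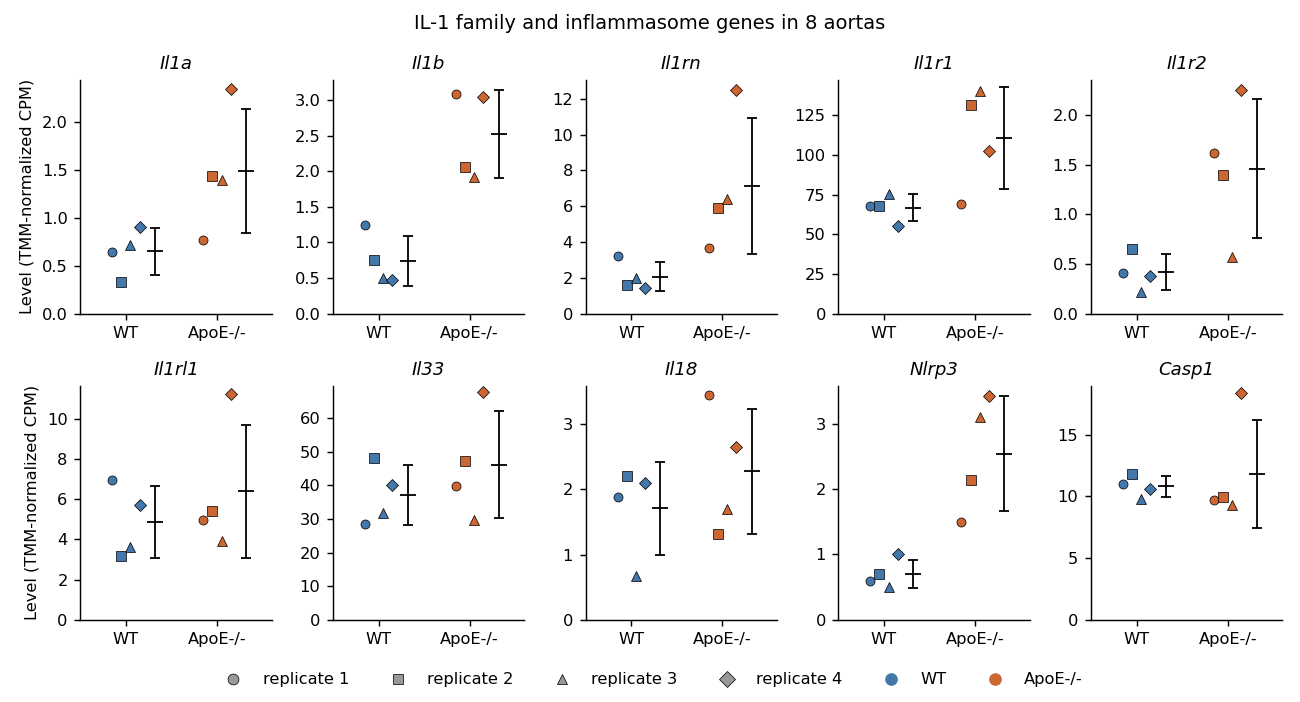
Level of the 10 genes in each aorta, as TMM-normalized CPM on an axis from 0, with WT mice in blue, ApoE-/- mice in orange, a symbol for each replicate number, and the mean ± SD of 4 mice beside the points. For *Il1b*, *Il1rn* and *Nlrp3* the 4 orange points lie above the 4 blue ones, and for *Casp1* 3 of the 4 orange points lie below 3 of the 4 blue ones.

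*Il1b* encodes IL-1beta, the form made by activated macrophages and other myeloid cells, and lies on chromosome 2, 129364570 to 129371139, minus strand of GRCm38. Its level was 3.08, 2.06, 1.92 and 3.04 CPM in ApoE-/- replicates 1 to 4 and 1.24, 0.749, 0.499 and 0.479 CPM in WT replicates 1 to 4. The lowest ApoE-/- mouse was above the highest WT mouse, and ApoE-/- replicates 1 and 4 stood above replicates 2 and 3. The log2 fold change was 1.75 (SE 0.36, 95% interval 0.93 to 2.58), with an edgeR adjusted p of 0.0753 and a DESeq2 adjusted p of 0.00114. These levels rest on 76, 47, 44 and 70 read pairs in ApoE-/- mice and 27, 16, 9 and 10 in WT mice.

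*Il1a* encodes IL-1alpha, which is active without cutting by caspase-1 and is released from damaged cells, and it lies near *Il1b* (chromosome 2, 129299610 to 129309972). It was measured at 0.771, 1.44, 1.39 and 2.34 CPM in ApoE-/- replicates 1 to 4 and at 0.643, 0.328, 0.72 and 0.91 CPM in WT replicates 1 to 4. The top 3 ApoE-/- mice were above every WT mouse, and replicate 1 lay inside the WT range. The log2 fold change of 1.19 (SE 0.42) had an unadjusted p of 0.0205 and did not pass after adjustment (edgeR adjusted p = 0.29, DESeq2 adjusted p = 0.204), nor without replicate 1 (1.40, edgeR adjusted p = 0.0839). With 7 to 19 read pairs per WT library, *Il1a* was among the most thinly counted of the 10 genes.

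*Il1rn*, which encodes the receptor antagonist (chromosome 2, 24336853 to 24351494, plus strand), was at 3.65, 5.9, 6.4 and 12.5 CPM in ApoE-/- mice and at 3.21, 1.59, 1.99 and 1.44 CPM in WT mice. Every ApoE-/- mouse was above every WT mouse, but ApoE-/- replicate 1 was close to WT replicate 1, while ApoE-/- replicate 4 was far above the rest. The log2 fold change was 1.79 (SE 0.42, 95% interval 0.81 to 2.76), with an edgeR adjusted p of 0.112 and a DESeq2 adjusted p of 0.00331. Without ApoE-/- replicate 1 it was 2.00, with an edgeR adjusted p of 0.0289, and without WT replicate 2 the adjusted p was 0.307.

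*Nlrp3* encodes the sensor around which the NLRP3 inflammasome assembles (chromosome 11, 59541568 to 59566956, plus strand), and its induction primes macrophages for that assembly. It was measured at 1.5, 2.14, 3.09 and 3.43 CPM in ApoE-/- mice and at 0.597, 0.702, 0.499 and 1.01 CPM in WT mice. The groups did not overlap. Its log2 fold change, 1.85 (SE 0.34, 95% interval 1.06 to 2.64), had the smallest edgeR adjusted p of the 10 genes at 0.0634, and DESeq2 gave 0.000756. Without ApoE-/- replicate 1 it was 2.03, with an edgeR adjusted p of 0.0143, and without WT replicate 3 the adjusted p was 0.202.

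The 3 genes whose genotypes did not overlap are shown by the 250 bases before their outermost start, from RefSeq promoter windows on GRCm38.p6, with bases inside the annotated gene left off. Capitals mark matches, on either strand, to the NF-kB consensus, to the PU.1 core GAGGAA, to the AP-1 site TGANTCA or to the C/EBP consensus, whose matches did not overlap in these windows.
Il1b chr2:129371140-129371389 (- strand): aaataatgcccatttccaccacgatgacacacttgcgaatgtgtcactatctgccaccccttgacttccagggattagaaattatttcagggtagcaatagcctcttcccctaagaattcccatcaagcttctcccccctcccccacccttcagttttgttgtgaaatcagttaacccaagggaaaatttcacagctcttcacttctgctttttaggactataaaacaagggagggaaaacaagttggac
Il1rn chr2:24336610-24336852 (+ strand): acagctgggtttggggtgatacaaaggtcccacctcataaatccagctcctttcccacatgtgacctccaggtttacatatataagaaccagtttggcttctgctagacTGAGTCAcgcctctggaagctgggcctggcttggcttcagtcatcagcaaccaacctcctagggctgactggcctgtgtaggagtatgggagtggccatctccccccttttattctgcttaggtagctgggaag
Nlrp3 chr11:59541319-59541567 (+ strand): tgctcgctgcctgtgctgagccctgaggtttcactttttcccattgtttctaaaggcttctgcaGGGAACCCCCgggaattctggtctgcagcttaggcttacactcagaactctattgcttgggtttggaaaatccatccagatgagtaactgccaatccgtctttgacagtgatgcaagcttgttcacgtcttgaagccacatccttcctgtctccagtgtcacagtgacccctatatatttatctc
The *Il1b* window held none of these letters, the *Il1rn* window held 1 AP-1 match that began 134 bases before its end, and the *Nlrp3* window held 1 match to the NF-kB consensus that began 185 bases before its end. *Il1rn* and *Nlrp3* also have annotated starts further inside the gene, whose windows are not shown. Those of *Il1rn* held 0 matches, and that of *Nlrp3* held 3 matches to the PU.1 core. Of 32851 mouse promoter windows of 250 bases, 6.75% held the AP-1 site, 7.25% the NF-kB consensus, 23.3% the PU.1 core and 9.56% the C/EBP consensus. The matches describe the letters of these windows, and no binding was measured.

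**Figure D2:**
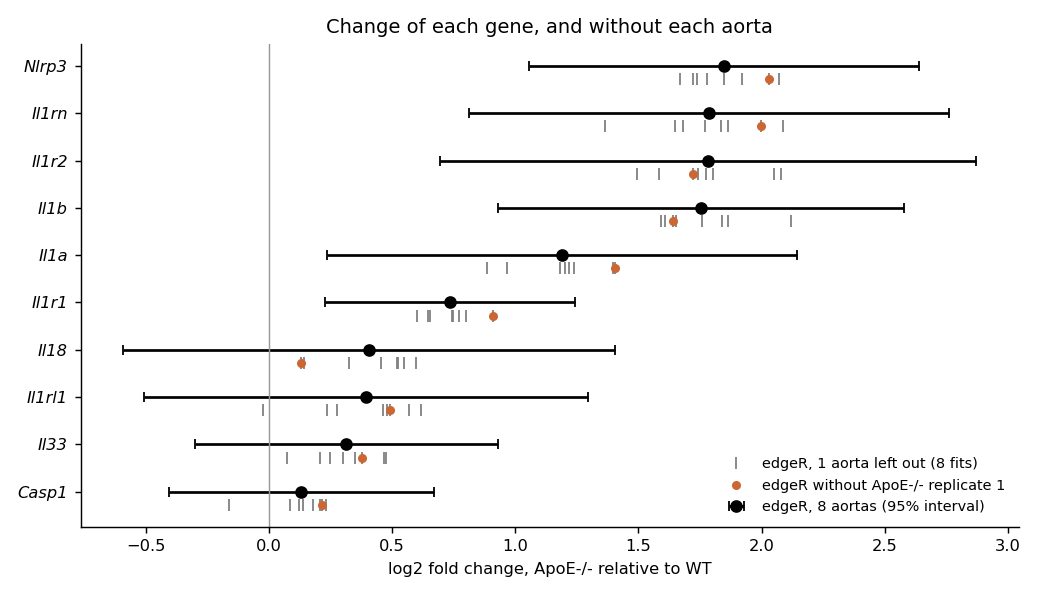
Fitted log2 fold change of each gene in ApoE-/- relative to WT aortas (edgeR, black points with 95% intervals), with a grey tick for each fit that leaves out 1 mouse and an orange point for the fit without ApoE-/- replicate 1. The intervals of the top 6 genes, from *Il1r1* (0.23 to 1.24) to *Nlrp3* (1.06 to 2.64), lie above 0, and those of *Il18*, *Il1rl1*, *Il33* and *Casp1* cross it.

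Among the receptors, *Il1r1*, the signalling receptor of IL-1, was abundant in all 8 aortas (chromosome 1, 40225080 to 40317257, plus strand). It stood at 69.1, 131, 140.2 and 103 CPM in ApoE-/- replicates 1 to 4 and at 67.9, 68, 75.4 and 55.1 CPM in WT replicates 1 to 4. ApoE-/- replicates 2, 3 and 4 were above every WT mouse, and replicate 1 was within the WT range. This gave a log2 fold change of 0.73 (SE 0.22), with an adjusted p of 0.206 by edgeR and 0.0646 by DESeq2. Without ApoE-/- replicate 1 it was 0.91, with an edgeR adjusted p of 0.0173, and without WT replicate 4 the adjusted p was 0.501. The same mouse was the lowest of the ApoE-/- group for fibroblast markers, whose mean log2 CPM was 7.87, 8.67, 8.83 and 9.21 in ApoE-/- replicates 1 to 4 and 7.95 to 8.11 in WT mice. That mouse was also the lowest of its group for contractile smooth muscle markers (8.20, 10.09, 10.09 and 9.40, with 9.34 to 10.19 in WT mice). The same held for macrophage markers (4.81, 5.56, 5.85 and 6.71, with 4.15 to 4.49 in WT mice). These lists were set beside *Il1r1* after the values were seen, and whether any of these cells carry its difference was not tested.

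*Il1r2*, the decoy receptor that binds IL-1 and sends no signal, was scarce (chromosome 1, 40074079 to 40125231, plus strand). Its level was 1.62, 1.4, 0.566 and 2.26 CPM in ApoE-/- mice and 0.413, 0.655, 0.222 and 0.383 CPM in WT mice, with 4 to 14 read pairs per WT library. ApoE-/- replicate 3 lay within the WT range and the other 3 ApoE-/- mice were above it. The log2 fold change of 1.78 (SE 0.47) had an adjusted p of 0.149 by edgeR and of 0.0396 by DESeq2. Neutrophils and monocytes are known for this receptor. Of 10 neutrophil markers, 2 passed the low-count filter, edgeR called 0 and DESeq2 called 1. That one, *S100a9*, stood at 2.44, 1.01, 1.18 and 3.6 CPM in ApoE-/- mice and 0.459, 0.421, 0.443 and 0.383 CPM in WT mice, without overlap (log2 fold change 2.25, adjusted p = 0.0696 by edgeR and 0.00174 by DESeq2). The other, *Elane*, was at 0.218 to 1.69 CPM in ApoE-/- mice and 0.749 to 1.58 CPM in WT mice (log2 fold change -0.44). Among those below the filter, *S100a8* was higher without overlap (0.392 to 2.78 CPM in ApoE-/- and 0.144 to 0.374 CPM in WT mice). *Cxcr2*, *Retnlg* and *Ngp* each had 3 ApoE-/- mice above every WT mouse, *Camp* had 1 and *Ltf* had 0. *Ly6g* and *Mpo* had at most 1 read pair in any library. The mean log2 CPM of the neutrophil markers spanned -1.89 to -0.75 (ApoE-/-) and -2.15 to -1.72 (WT), and their part in the *Il1r2* difference was not tested.

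*Il1rl1*, which encodes the IL-33 receptor ST2 (chromosome 1, 40429570 to 40465415, plus strand), did not separate the genotypes. It was measured at 4.99, 5.42, 3.92 and 11.2 CPM in ApoE-/- mice and at 6.98, 3.18, 3.6 and 5.7 CPM in WT mice, and the fitted log2 fold change was 0.39 (95% interval -0.51 to 1.29, edgeR adjusted p = 0.807). ApoE-/- replicate 4 was the highest of the 8 mice and WT replicate 1 the next. Mast cells carry much ST2, and 4 proteases of a list of mast cell markers were highest in those same 2 libraries, with *Cpa3*, mast cell carboxypeptidase, at 6.13, 5.9, 2.7 and 19.3 CPM in ApoE-/- mice and 7.71, 3.09, 3.55 and 5.46 CPM in WT mice. The chymase *Mcpt4* was at 6.17, 5.25, 2.05 and 15.5 CPM in ApoE-/- mice and at 8.49, 3.04, 3.43 and 5.17 CPM in WT mice. *Fcer1a* and *Ms4a2*, at lower levels, had the same order, and the 4 other markers of the list did not. *Hdc* was highest in WT replicate 1 (range 10.9 to 17.7 CPM in WT and 6.65 to 12.7 CPM in ApoE-/- aortas), *Kit* in WT replicates 1 and 2, and *Gata2* and *Slc18a2* in ApoE-/- replicate 1 (79.5 and 756 CPM). Over the whole list, 9 of 10 mast cell markers were tested and 0 were called by edgeR or DESeq2, and their mean log2 CPM was 3.26, 2.30, 1.90 and 3.39 in ApoE-/- mice and 3.17, 2.48, 2.17 and 2.70 in WT mice. The proteases were set beside *Il1rl1* after the values were seen, and their part in its level was not tested.

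**Figure D3:**
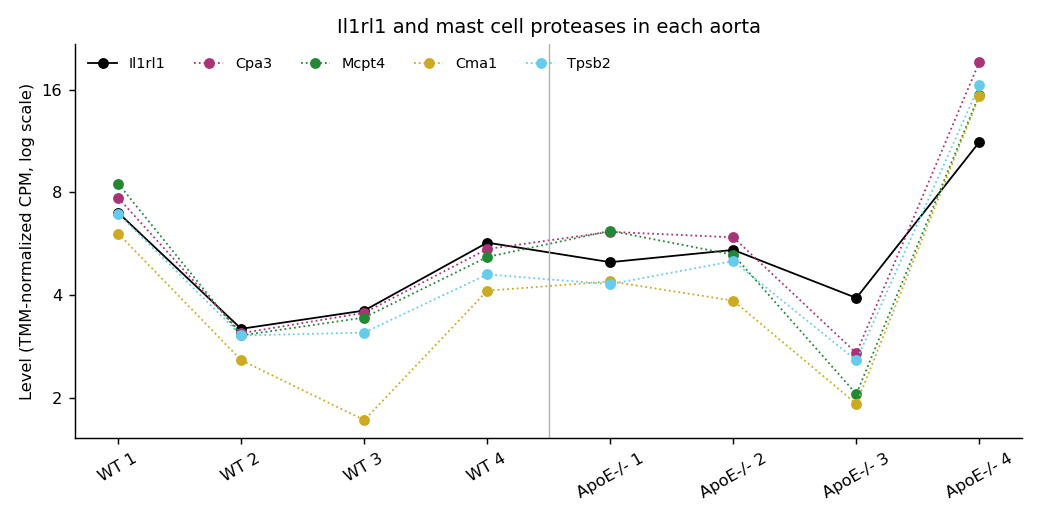
Level of *Il1rl1* and of 4 mast cell proteases in each aorta, as TMM-normalized CPM on a log2-spaced axis, WT mice on the left and ApoE-/- mice on the right, with lines that only join the values of a gene. All 5 genes are highest in ApoE-/- replicate 4 and next highest in WT replicate 1.

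*Il33*, the ligand of ST2, is held in the nuclei of stromal and endothelial cells and set free when they are damaged (chromosome 19, 29925114 to 29960718, plus strand). Its level was 39.9, 47.4, 29.8 and 67.7 CPM in ApoE-/- mice and 28.5, 48.3, 31.9 and 40 CPM in WT mice. The genotypes overlapped over most of their range, with ApoE-/- replicate 4 above all others. Its log2 fold change was 0.31 (95% interval -0.30 to 0.93, edgeR adjusted p = 0.777) and 0.07 without that mouse. Endothelial markers, as a mean log2 CPM, were lower in every ApoE-/- mouse (7.03 to 7.28) than in any WT mouse (7.50 to 7.60), with 5 of 10 lower without overlap, where 3.3% of all genes were, 6 at an unadjusted p under 0.05, 0 called by edgeR and 5 called lower by DESeq2. Their part in the level of *Il33* was not tested.

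*Il18* encodes the other cytokine that caspase-1 cuts (chromosome 9, 50554827 to 50581840, plus strand). At 3.45, 1.31, 1.7 and 2.65 CPM in ApoE-/- mice and 1.88, 2.2, 0.665 and 2.11 CPM in WT mice, it varied as much within as between the genotypes. Its fitted log2 fold change was 0.41 (95% interval -0.59 to 1.40, edgeR adjusted p = 0.815). WT replicate 3 was lowest and ApoE-/- replicate 1 highest, and without the latter the log2 fold change was 0.13.

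*Casp1*, the protease itself (chromosome 9, 5298517 to 5307265, plus strand), was present at a like level in 7 of the 8 mice. Its level was 9.7, 9.93, 9.32 and 18.4 CPM in ApoE-/- mice and 11, 11.8, 9.81 and 10.6 CPM in WT mice. ApoE-/- replicate 4 was the single high value, and the other 3 ApoE-/- mice were below 3 of the 4 WT mice. The fitted difference was 0.13 on the log2 scale (95% interval -0.41 to 0.67, edgeR adjusted p = 0.895) and turned to -0.16 without ApoE-/- replicate 4. Within the ApoE-/- group, replicate 4 was the highest mouse for 7 of the 10 genes and the lowest for 0.

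For 3 pairs of genes (ligand to antagonist, decoy to signalling receptor, and ligand to receptor), the log2 ratio of read pairs within each mouse was compared. Two-sided exact permutation tests ran over the 70 assignments of 8 mice, whose smallest possible p is 0.0286. The ratios are not adjusted for exon length, which is 5.535 kb for *Il1rn* and 1.907 kb for *Il1b*, so they do not show which RNA is in excess. For each read pair on *Il1rn* there were 0.844, 0.348, 0.299 and 0.243 read pairs on *Il1b* in ApoE-/- replicates 1 to 4 and 0.386, 0.471, 0.25 and 0.333 in WT replicates 1 to 4. ApoE-/- replicate 1 had the highest ratio of the 8 mice, and the other 3 ApoE-/- mice lay within or just below the WT range. The log2 ratio was -1.39 ± 0.79 (SD, n = 4) in ApoE-/- mice and -1.51 ± 0.38 in WT mice, a difference of 0.12 (exact permutation p = 0.83, 0.83 after Benjamini-Hochberg adjustment over the 3 ratios).

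The decoy *Il1r2* against the signalling receptor *Il1r1* gave a log2 ratio of -6.36 ± 1.18 in ApoE-/- mice and -7.41 ± 0.72 in WT mice, a difference of 1.05 (exact permutation p = 0.171, adjusted 0.514). For *Il33* against *Il1rl1* it was 2.91 ± 0.23 in ApoE-/- mice and 2.98 ± 0.78 in WT mice, a difference of -0.07 (exact permutation p = 0.83, adjusted 0.83). For all 3 ratios the genotypes overlapped, and the SD among ApoE-/- mice was larger than the difference between genotypes.

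Macrophages make much of the IL-1beta, IL-1 receptor antagonist and NLRP3 in a plaque, so the 10 genes were set beside 16 macrophage markers in the same libraries. The mean log2 CPM of the markers was 4.81, 5.56, 5.85 and 6.71 in ApoE-/- replicates 1 to 4 and 4.48, 4.34, 4.15 and 4.49 in WT replicates 1 to 4, a difference of 1.37 without overlap. Of the 16 markers, 13 were higher in every ApoE-/- mouse than in any WT mouse (5.41% of all genes), 2, *Fcgr1* and *Trem2*, passed the adjusted threshold of edgeR (0.371%), and 10 passed that of DESeq2 (3.12%). Taken relative to this mean, *Il1b* was at -3.14, -4.46, -4.84 and -5.06 in ApoE-/- mice and at -4.07, -4.60, -4.91 and -5.30 in WT mice on the log2 scale, a difference of 0.34. The groups then overlapped. *Il1rn* differed by 0.31 relative to the markers and *Nlrp3* by 0.34, and their groups overlapped as well. The part of the macrophage markers in the levels of the 10 genes was not tested.

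Relative to the same markers, *Il33* was -1.09, *Il1rl1* -1.02, *Il18* -0.94 and *Il1r1* -0.67 in ApoE-/- minus WT mice, each with overlap, and *Il1a* and *Il1r2* were at -0.30 and 0.17. *Casp1* alone among the 10 did not overlap on this scale. It was at -1.52, -2.23, -2.61 and -2.50 in ApoE-/- mice and at -1.02, -0.77, -0.84 and -1.06 in WT mice, a difference of -1.29. The level of *Casp1* itself hardly differed (log2 fold change 0.13), so this value mostly restates the difference of 1.37 in the marker mean that was subtracted.

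**Figure D4:**
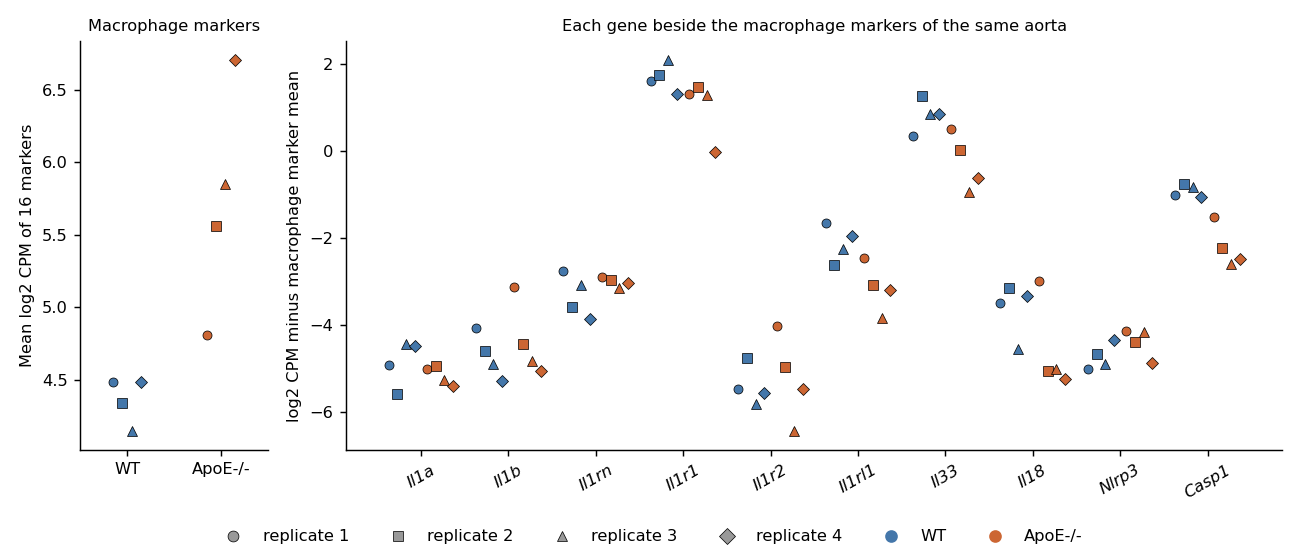
Left, mean log2 CPM of 16 macrophage markers in each aorta. Right, log2 CPM of each gene minus that mean in the same aorta, WT mice in blue and ApoE-/- mice in orange with a symbol for each replicate number, where the 4 orange points lie below the 4 blue ones for *Casp1* and the groups overlap for the other 9 genes.

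The genes whose pattern over the 8 libraries was most like that of *Il1b*, by the root mean square difference of centred log2 CPM among 14207 genes, were *Csf3r*, the receptor of granulocyte colony-stimulating factor (0.263), the interferon-induced *Oas3* (0.271) and *Plcb2* (0.276). For *Il1rn* they were *Rnf128* (0.2), *Myo1f* (0.22) and *Nckap1l* (0.265), and for *Nlrp3* they were *Atp8b4* (0.215), *Cd180* (0.224) and *Abcg1*, a cholesterol exporter (0.261). The differences of *Il1b*, *Il1rn* and *Nlrp3* from their own means were 0.947, 0.994 and 0.940 by the same measure.

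The rest of the pathway was described by 7 lists of 83 genes. Of the other ligands and inhibitors, *Il18bp*, which binds and blocks IL-18, was the only one of 6 that passed the low-count filter. It was at 17.1, 22, 27.3 and 23.4 CPM in ApoE-/- mice and 15.1, 16.1, 16.2 and 15.1 CPM in WT mice, without overlap, and did not pass the test (log2 fold change 0.52, edgeR adjusted p = 0.169). Without ApoE-/- replicate 1 it passed (0.64, edgeR adjusted p = 0.0234), and without WT replicate 4 the edgeR adjusted p was 0.418. *Il36g* had 0 to 14 read pairs per library, and *Il36a*, *Il36b*, *Il36rn* and *Il1f10* had at most 1.

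Of 6 other receptors tested, 0 were called by edgeR, 2 higher and 1 lower reached an unadjusted p under 0.05 (7.19% and 4.17% of all genes), and DESeq2 called 1 higher (3.12%). That gene, *Il18rap*, the signalling chain of the IL-18 receptor, was at 3.21, 2.19, 3.18 and 3.52 CPM in ApoE-/- mice and 1.61, 1.12, 1.11 and 1.01 CPM in WT mice (log2 fold change 1.31, adjusted p = 0.0624 by edgeR and 0.000617 by DESeq2), and without ApoE-/- replicate 1 it passed by edgeR as well (1.28, adjusted p = 0.043). Without WT replicate 4 the edgeR adjusted p of *Il18rap* was 0.214. Its partner chain *Il18r1* had a log2 fold change of 0.85 (edgeR adjusted p = 0.29). *Sigirr*, a receptor that dampens IL-1 family signals, was lower in every ApoE-/- mouse (6.52 to 9.03 CPM) than in any WT mouse (9.1 to 11.7 CPM), and its log2 fold change of -0.46 had an edgeR adjusted p of 0.272. *Il1rap*, the shared accessory chain, was at -0.10 (edgeR adjusted p = 0.896).

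Of 8 inflammasome sensors tested out of 12, only *Mefv* passed the threshold of edgeR, and DESeq2 called 2, *Mefv* and *Nlrp1b*. *Mefv* encodes pyrin, a sensor of myeloid cells, and rose from 0.413, 0.187, 0.609 and 0.335 CPM in WT mice to 2.23, 2.8, 4.27 and 4.64 CPM in ApoE-/- mice (log2 fold change 3.17, SE 0.41, edgeR adjusted p = 0.0379). *Mefv* had 9, 4, 11 and 7 read pairs in WT mice, and its edgeR adjusted p ran from 0.00652 to 0.149 when 1 mouse was left out. All 8 sensors had a fitted change above 0, as 8747 of all 15077 genes did, with a median of 0.61, and 5 were higher without overlap (5.41% of all genes). The adaptors, caspases and effectors had a median of 0.09, with 0 of 8 called by edgeR or DESeq2, and 1 higher and 1 lower at an unadjusted p under 0.05 (7.19% and 4.17% of all genes). These were *Pycard*, the adaptor ASC that joins NLRP3 to caspase-1, at 14.5, 15.8, 16.6 and 15.6 CPM in ApoE-/- mice and 13.6, 14.1, 11.4 and 12.2 CPM in WT mice (log2 fold change 0.28, edgeR adjusted p = 0.363), and *Txnip*, at -0.47 (edgeR adjusted p = 0.439). *Gsdmd*, whose product gasdermin D forms the pore through which IL-1beta leaves the cell, was at -0.06 (edgeR adjusted p = 0.929), and *Casp4* at 0.64 (edgeR adjusted p = 0.495) and at 0.24 without ApoE-/- replicate 3.

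The 16 genes of signal transduction from the receptor to NF-kB lay in a narrow range, from -0.14 (*Chuk*) to 0.32 (*Myd88*, edgeR adjusted p = 0.499), with a median of 0.05. None reached an unadjusted p under 0.05 by edgeR, and DESeq2 called 0. *Myd88* was at 0.17 without ApoE-/- replicate 4. Between those ends, *Tab2* was at 0.15 and *Irak2* at -0.13 (-0.24 to -0.01 when 1 mouse was left out).

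Of 22 tested genes that IL-1 induces in stromal and endothelial cells, 6 rose by edgeR and 13 by DESeq2, 15 were higher without overlap, and the median log2 fold change was 1.31. Over all genes tested these were 0.371%, 3.12%, 5.41% and 0.05. The acute-phase gene *Saa3* was at 22.9, 4.42, 6.62 and 18.4 CPM in ApoE-/- mice and at 0.0918, 0.0936, 0.111 and 0.335 CPM in WT mice (log2 fold change 6.32, edgeR adjusted p = 0.0355). *Il6*, the cytokine downstream of IL-1, had 162, 71, 130 and 81 read pairs in ApoE-/- mice and 6, 6, 1 and 0 in WT mice (log2 fold change 4.87, SE 0.71, edgeR adjusted p = 0.0396). The collagenase *Mmp13* had 69, 112, 141 and 545 read pairs in ApoE-/- mice and 3, 0, 1 and 4 in WT mice (log2 fold change 6.51, edgeR adjusted p = 0.0438). The WT counts of these 3 genes are so low that the sizes of their fitted changes are uncertain. The same limit holds for *Cxcl2*, named next. It had 18, 15, 18 and 26 read pairs in ApoE-/- mice and 5, 2, 3 and 4 in WT mice. The other 3 genes that rose were the monocyte chemokine *Ccl2* (2.15, edgeR adjusted p = 0.0355), the neutrophil chemokine *Cxcl2* (2.24, 0.0434) and the siderophore-binding *Lcn2* (2.72, 0.0381). Other signals, TNF and microbial products among them, induce the same genes, *Il6*, *Ccl2* and *Mmp13* are genes the study itself names for these aortas, and macrophages, whose markers were higher, express some of the list. Which signals or cells the difference in these genes comes with was not tested. Without ApoE-/- replicate 1, edgeR called 15 genes of all 7 lists, without replicate 2 it called 2, and without any other single mouse 0, against 7 in all 8 mice.

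Of 9 genes of the type 2 lymphocytes and regulatory T cells that answer IL-33, 5 were tested and 0 were called by edgeR or DESeq2, and 0 reached an unadjusted p under 0.05. *Il4* had a log2 fold change of 0.59 (0.26 without ApoE-/- replicate 1) and *Foxp3*, the factor of regulatory T cells, of -0.35, and for both the genotypes overlapped. *Gata3* was at 22.9, 3.15, 5.14 and 2.08 CPM in ApoE-/- mice, with replicate 1 far above the rest, and at 4.82, 6.65, 4.21 and 4.98 CPM in WT mice, and its log2 fold change of 0.69 turned to -0.57 without that mouse.

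**Figure D5:**
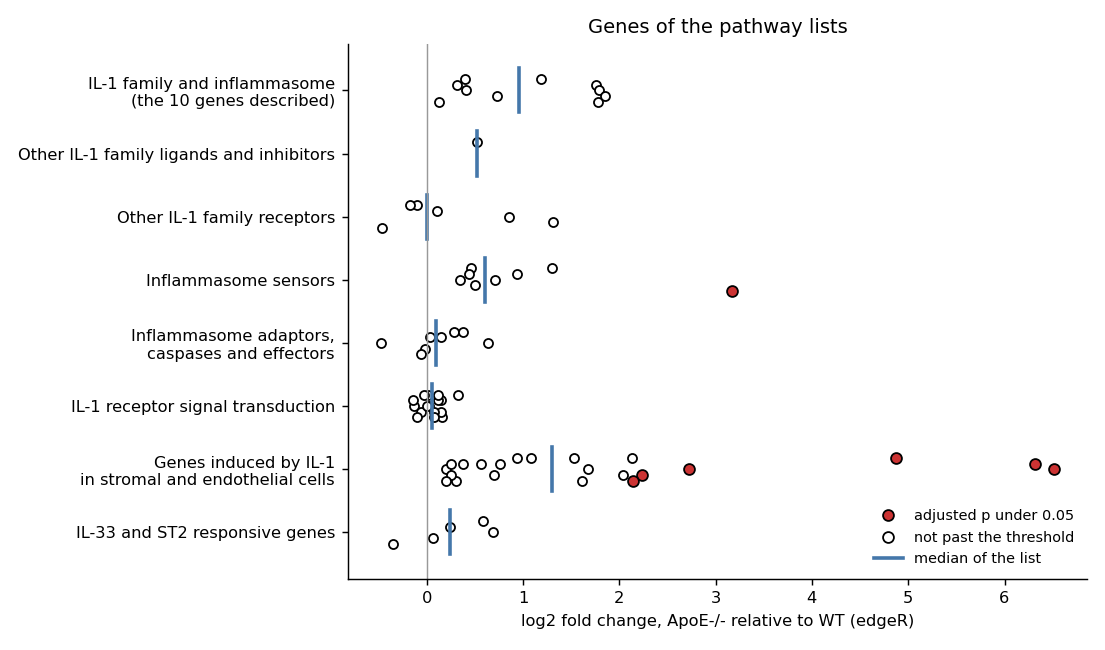
Fitted log2 fold change (edgeR, ApoE-/- relative to WT) of each tested gene of the 10 described and of the 7 pathway lists, with genes past an adjusted p of 0.05 in red and the median of each list as a blue line. The 7 red points are *Mefv* among the sensors and 6 genes of the IL-1-induced list, and the 16 signal transduction genes lie between -0.14 and 0.32.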

How the data were processed

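Aortas of 4 ApoE-/- and 4 WT mice were sequenced as total RNA, 1 library per mouse. The authors deposited, for each gene, the raw count of its read pairs, with no normalization. The submitters' processing notes name TopHat2, HTSeq and GRCm38 (mm10); versions and annotation release are not given in the sources used here, and the deposited tables are marked as counted by strand. Summary lines (pairs on no gene, 50.1% to 54.7% in ApoE-/- and 56.4% to 58.0% in WT mice, ambiguous, 0.850% to 1.32%, aligned to several places, 11.8% to 14.3%) stayed out of library sizes. The paper states that mice were kept under barrier conditions, and the labels do not say which aortas were processed together. The p-values set the genotype difference against the spread between mice of a genotype. A batch that went with genotype cannot be told apart from it.

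Counts were tested with edgeR 4.0.16 in R 4.3.3 (filterByExpr, 15077 genes kept; TMM; robust quasi-likelihood F test, two-sided; Benjamini-Hochberg over all genes, threshold 0.05) and checked on simulated data. Levels are TMM-scaled CPM, and marker means used a prior count of 2. Ratios were tested with SciPy 1.17.1. Alternatives were DESeq2 1.42.0 (the tool of the study's methods), limma-voom (3.58.1), other scaling and filters, no robust estimation, a replicate block and leaving out each mouse. Gene coordinates come from GENCODE M21 (21817 identifiers matched, 42 not), promoters from RefSeq. Pathway genes were named where past the threshold, or else as the 2 smallest p in each direction of a list, and the 3 most like genes for each gene whose genotypes did not overlap, at a mean of 1 CPM or more. The 10 genes and the lists were chosen with earlier results of these data known. Genes inside or across the 10, such as *Il1bos* antisense to *Il1b*, were not in the tables, except *Bco2* and *Tex12*, which share no exon with *Il18*.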

Additional observations from a re-analysis of the deposited data

Results flagged for a closer look

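In a test of the gap between an extreme sample and its nearest neighbour, as a share of the group's range, 5 of 48 groups of 4 mice passed Dixon's 95% critical value, and chance alone gives about 2.4. For *Casp1*, ApoE-/- replicate 4 was the highest at 18.4 CPM, with a gap of 0.933 of the range. For endothelial markers the same mouse was the highest of the ApoE-/- group at 7.28 (mean log2 CPM), with a gap of 0.919. For cardiac muscle markers ApoE-/- replicate 1 was the highest of its group at 4.16, below the lowest WT mouse at 4.87, with a gap of 0.918. For markers of T cells and ILC2, WT replicate 3 was the lowest of its group at -0.49, with a gap of 0.846. For dendritic cell markers WT replicate 2 was the lowest of its group at 1.25, with a gap of 0.891.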

How the results depend on the processing

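Called higher among the 10 genes were 0 with edgeR on all mice, 4 with DESeq2, 0 with limma-voom, and 0 to 3 when 1 mouse was left out. Among the pathway genes the count of 7 became 16 with DESeq2 and 3 with limma-voom, and 0 to 15 when 1 mouse was left out, and no list gene was called lower in any of these fits. Over all genes, 56 were called higher, 470 with DESeq2, 20 with limma-voom, and 0 (several mice) to 417 (without ApoE-/- replicate 1) when 1 mouse was left out. The replicate numbers belong to different mice. The deviations of same-numbered mice correlated at 0.0593, -0.448, 0.316 and 0.162, and 1 of 8 samples correlated best with its own number. With the replicate block, 0 of the 10 genes, 0 pathway genes and 2 genes in all were called. The fold changes of the 10 genes kept their sign in all other fits, and leaving out 1 mouse moved them over 1.59 to 2.12 (*Il1b*), 1.37 to 2.09 (*Il1rn*), 1.67 to 2.07 (*Nlrp3*), 1.49 to 2.08 (*Il1r2*), 0.88 to 1.40 (*Il1a*), 0.60 to 0.91 (*Il1r1*), 0.07 to 0.48 (*Il33*), 0.13 to 0.60 (*Il18*), -0.026 to 0.62 (*Il1rl1*) and -0.16 to 0.23 (*Casp1*), the last 2 turning sign without ApoE-/- replicate 4. *Il1rap* ranged over -0.22 to 0.027, *Gsdmd* over -0.16 to 0.0051 and *Gata3* over -0.57 to 1.01. Leaving out 1 mouse moved the difference in the log2 ratio of *Il1b* to *Il1rn* over -0.26 to 0.34, of *Il33* to *Il1rl1* over -0.38 to 0.25, and of *Il1r2* to *Il1r1* over 0.72 to 1.59. Values relative to macrophage markers moved by less than 1 SD when 4 markers were dropped. Depth limits *Il1a*, *Il1b*, *Il1r2* and *Nlrp3*, with under 30 read pairs in each WT library. The cause of these shifts was not tested, beyond the smaller number of mice in the fits that leave one out.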
